A study of Mus musculus with 12 samples.

Results

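The immediate early transcription factors described here in mouse cardiac ventricle are 10 genes among 25821 features tested: Fos, Fosb, Fosl2, Jun, Junb, Egr1, Atf3, Ier2, Nr4a1 and Myc. They were taken by name, as the probes whose symbol in the platform annotation is one of these 10, which gave 16 of the 41174 probes in the table. Total RNA came from 6 wild-type mice (WT, AMPK alpha2 +/+) and 6 knockout mice (KO, AMPK alpha2 -/-), which lack the alpha2 catalytic subunit of the AMP-activated protein kinase, an energy sensor. All 12 animals were 7 months old and of strain C57B6, and their hearts were taken out under pentobarbital. The deleted part of the gene, the sex of the animals and the time from removal to extraction are not given in the sources used here. Each animal had 1 array of 2 colours against a common reference RNA pooled from 11 mouse cell lines, and the heart RNA carried Cy3 in replicates 1 to 3 and Cy5 in replicates 4 to 6, in WT and KO alike.

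Immediate early genes are transcribed within minutes of a stimulus, before any new protein is made, because the factors that switch them on are already present in the cell. Growth factors, stretch, hormones acting through cyclic AMP and cell stress reach them through the serum response factor SRF with its ELK partners and through CREB, and their messages are short-lived. Fos, Fosb, Fosl2, Jun, Junb and Atf3 encode basic leucine zipper proteins that pair into the AP-1 family of dimers. Egr1 encodes a zinc finger factor, Nr4a1 an orphan nuclear receptor, Myc a factor of growth control, and Ier2 a small nuclear protein of the early response. In the heart these genes are known for brief induction by load, adrenergic signals and ischaemia, and in many tissues by handling during sampling.

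Values are log ratios of heart over reference, read as log2, where 0 means equal signal in both. A ratio depends on the reference cell lines as well as on the heart, so the ratios of different genes were not ranked as RNA levels. In bulk tissue, fewer expressing cells and less RNA per cell cannot be told apart. The arrays had the profile of ventricle muscle: all 14 cardiomyocyte markers lay above the reference on every array with a value, and all 11 measured markers of dividing cells below it. Marker means are over the markers with a value on the array. The mean of the 6 measured lung markers was 2.86 in KO replicate 6 and between -0.09 and 0.26 on the other arrays. That of the 7 liver markers was 4.69 there and at most 1.18 on the other arrays with a value. WT replicate 3 had no liver value, and 0 liver markers had a value on all arrays. For 9 atrial markers the mean was 3.32 in WT replicate 2 and 3.56 in KO replicate 1, against 0.77 to 1.92 elsewhere. The mean of 7 fat cell markers was 3.95 and 4.43 in these animals, against 1.28 to 2.66. The fat markers Adipoq and Ucp1 had no value in KO replicate 1 and lay near 0 on most other arrays, so its mean is not comparable. Over the 2 fat markers with a value on all arrays the sum was 5.59 to 9.13 in WT and at most 6.65 in KO. Without these 3 arrays 0 of the 10 genes passed and none changed sign, but some differences moved by over 1.5 times: Fos to -0.914, Fosb to -0.218, Egr1 to 0.279 and Myc to 0.191 (limma adjusted p of 0.994 to 0.999). The 1 probe of the targeted gene Prkaa2 read 3.99 to 4.23 in WT and 3.58 to 4.27 in KO. Its place relative to the deletion is not given, so it checks nothing about the genotype.

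The promoters of Fos, Junb and Nr4a1 are shown because Fos and Junb had the largest Pearson correlation between animals, and Nr4a1 had the widest range. Each runs from 250 bases before to 50 bases after the start site used in the RefSeq promoter table, build GRCm38.p6, 5′ to 3′ on the strand of the gene. For Nr4a1 and Fosb that start differs from the outer end of the gene in the RefSeq gene table, so their motif positions hold for the promoter table's start only. Capitals mark TGACG, the core of the cyclic AMP response element bound by CREB and ATF proteins, and the EGR motif GCGGGGGCG, each on either strand (CGTCA and CGCCCCCGC on the other).
Fos, chr12:85473640-85473939, plus strand: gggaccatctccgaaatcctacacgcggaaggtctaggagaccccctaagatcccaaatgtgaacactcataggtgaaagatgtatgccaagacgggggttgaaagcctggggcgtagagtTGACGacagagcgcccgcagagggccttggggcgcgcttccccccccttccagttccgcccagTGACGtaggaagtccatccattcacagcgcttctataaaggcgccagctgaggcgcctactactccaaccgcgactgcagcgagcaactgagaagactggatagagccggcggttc
Junb, chr8:84978699-84978998, minus strand: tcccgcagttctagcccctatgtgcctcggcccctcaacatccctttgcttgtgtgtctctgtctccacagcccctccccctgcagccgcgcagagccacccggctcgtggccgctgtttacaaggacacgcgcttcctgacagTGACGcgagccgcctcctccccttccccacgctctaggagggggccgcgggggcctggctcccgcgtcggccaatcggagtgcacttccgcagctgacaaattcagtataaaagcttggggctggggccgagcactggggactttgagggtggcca
Nr4a1, chr15:101266596-101266895, plus strand: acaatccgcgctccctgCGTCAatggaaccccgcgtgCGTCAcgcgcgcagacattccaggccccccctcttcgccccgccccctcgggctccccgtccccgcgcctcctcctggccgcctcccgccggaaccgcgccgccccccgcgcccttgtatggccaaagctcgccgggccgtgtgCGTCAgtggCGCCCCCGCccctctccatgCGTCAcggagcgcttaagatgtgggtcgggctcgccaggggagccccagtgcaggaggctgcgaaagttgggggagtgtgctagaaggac
Counting the base before the start as -1, the Fos matches to TGACG begin at -129 and -66 and the Junb match at -106. Nr4a1 has 4 matches, the nearest beginning at -40, and its EGR motif begins at -60. Of the 7 members with a promoter in the table (Fos, Fosb, Fosl2, Jun, Junb, Atf3 and Nr4a1), 5 held TGACG, as did 21.0% of 27025 promoters of the same length. GCGGGGGCG was in 3 of the 7 (Fosb, Fosl2 and Nr4a1), against 2.92% of all. The full element TGACGTCA, which contains TGACG, was in 0 of 7 against 1.88%, the AP-1 motif TGANTCA in 0 against 7.93%, and the CArG box, the SRF site, in 0 against 1.57%. Both strands were searched over these 300 bases only, so a site outside them or spelled otherwise was not counted. Egr1, Ier2 and Myc had no promoter in the table. A count of 0 does not show that a gene lacks the site, and a match is a description of the letters only.

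No member of the group passed the test between the genotypes. Of the 10 genes 0 passed the limma test at adjusted p under 0.05, where 0.00387% of all features passed, and 0 had an unadjusted p under 0.05, where 5.33% did. The KO animals averaged higher in 5 genes and lower in 5, with a median of -0.03 on the log2 scale against -0.001 over all features. In each of the 10 genes the WT and KO animals overlapped, and 0.465% of all features did not overlap. Every animal with a value lay below the reference for 8 of the 10 genes, all but Jun and Nr4a1, as it did for 19.0% of all features. This holds for the kept probes as combined. Taken alone, a Fosl2 probe reached 0.56 in WT replicate 6, and the Fos probe with too few values reached 0.55 in KO replicate 4. A difference that missed the threshold does not show equal levels: for Fos, Egr1 and Nr4a1 the 95% intervals were wide.

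**Figure D1:**
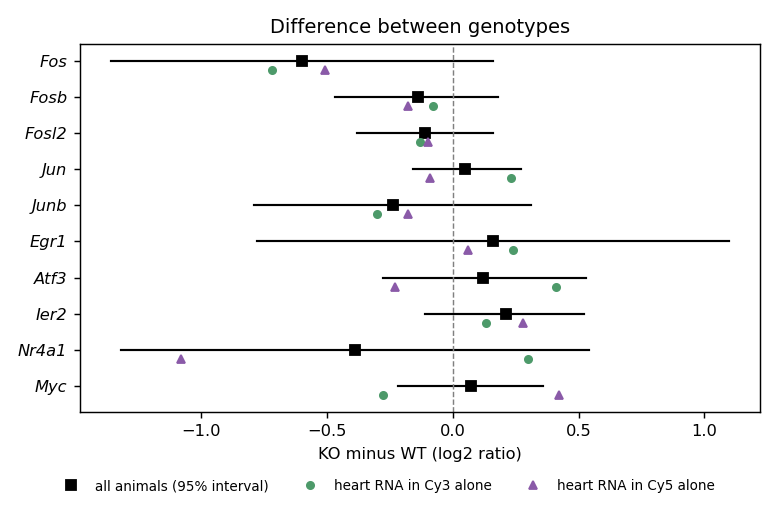
KO minus WT of each gene in log2 ratio (squares, limma with dye orientation as a term, lines 95% intervals), with the difference in the 6 animals of each dye orientation (circles Cy3, triangles Cy5). All 10 intervals include 0, that of Jun (-0.16 to 0.27) is the narrowest, and those of Egr1 (-0.78 to 1.10) and Nr4a1 (-1.32 to 0.54) are the widest.

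Among the FOS proteins, which pair with JUN proteins and do not pair with each other, Fos itself differed most in size. Its log2 ratio in WT was -2.11 in replicate 1, -2.26 in replicate 2, -1.95 in replicate 4, -0.81 in replicate 5 and -2.98 in replicate 6, with no value in replicate 3. In the 6 KO animals it ran from -3.43 through a median of -2.64 to -1.71. WT replicate 5 was the highest animal of all. WT replicates 1, 2 and 4 lay above every KO animal but replicate 6 (-1.71), and WT replicate 6 lay inside the KO range. The difference was -0.60 ± 0.35 (SE, n = 5 and 6, limma adjusted p = 0.942, 95% interval -1.36 to 0.16). Leaving out 1 animal moved it from -0.339 (without WT replicate 5) to -0.882 (without WT replicate 6), and it did not pass in any of these fits.

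A second Fos probe had too few values for the test. It read -0.88 to 0.55 on 8 arrays and was highest in KO replicate 4, whereas the probe used here was highest in WT replicate 5. With both probes combined the Fos difference was -0.235 ± 0.198 (limma adjusted p = 0.942).

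Fosb, a close relative of Fos, stayed near the reference, with WT values of -0.49, -0.53, -0.32, -0.14 and -0.41 in replicates 1, 2, 4, 5 and 6. In KO it was -0.19, -1.01, -0.48, -0.29 and -0.66 in replicates 1, 3, 4, 5 and 6. KO replicates 3 and 6 lay below the WT range and KO replicates 1, 4 and 5 inside it. The Fosb difference was -0.14 ± 0.15 (SE, limma adjusted p = 0.952). It ran from -0.28 (without KO replicate 1) to -0.0269 (without KO replicate 3) when 1 animal was left out. Fosl2, which encodes FRA-2, ran from -0.71 to -0.06 in WT (median -0.31) and from -0.69 to -0.13 in KO (median -0.46), so that both groups covered the same span. KO minus WT was -0.11 ± 0.12 (SE, 6 animals each, limma adjusted p = 0.96). It ran from -0.198 (without WT replicate 4) to -0.0522 (without KO replicate 4) when 1 animal was left out, and was -0.00706 without the 2 arrays with most empty cells. Its probes pointed in opposite directions (-0.22 and 0.07).

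**Figure D2:**
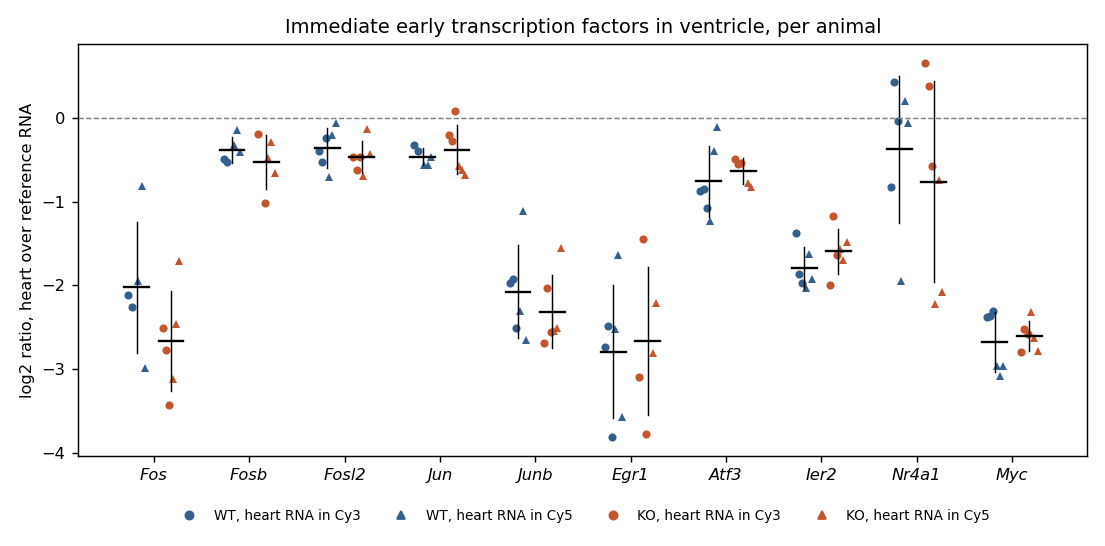
Log2 ratio of heart over reference RNA for each of the 10 genes, 1 point per animal (blue WT, orange KO, circles for heart RNA in Cy3, triangles for Cy5), with group mean (bar) and SD (line). Fos, Junb, Egr1, Ier2 and Myc lie below the reference (dashed line) in every animal with a value, Nr4a1 lies on both sides, and the genotypes overlap throughout.

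The JUN genes encode the partners of FOS. Junb ran from -2.65 to -1.11 in WT (median -2.13) and from -2.69 to -1.55 in KO (median -2.53). As for Fos, the highest animal was WT replicate 5, which was highest on both Junb probes (-1.72 and -0.50), and the highest KO animal was replicate 6. KO minus WT of Junb was -0.24 ± 0.26 (SE, 6 animals each, limma adjusted p = 0.954), with leave-one-out values from -0.392 (without KO replicate 6) to -0.0443 (without WT replicate 5).

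Jun lay close to the reference and varied little once genotype and dye orientation were taken into account. Its WT values were -0.32, -0.40, -0.56, -0.56 and -0.47 in replicates 1, 2, 4, 5 and 6, and in KO it ran from -0.68 through -0.42 to 0.08. The value of 0.08, in KO replicate 3, was the 1 value of Jun above the reference. All animals with heart RNA in Cy3 and a value (-0.40 to 0.08) lay above all those in Cy5 (-0.68 to -0.47). Without the dye term the residual SD of Jun was 0.233, above 46.2% of features, against 0.14 with it. KO minus WT was 0.05 ± 0.10 (SE, n = 5 and 6, limma adjusted p = 0.975). It ran from -0.0034 (without KO replicate 3) to 0.0864 (without WT replicate 6) with 1 animal left out. Jun lies on chromosome 4, as does the targeted gene Prkaa2, 43 tested genes away, and a part of the neighbourhood in the Jun values was not tested.

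Atf3, a stress-induced repressor that pairs with JUN proteins, ran from -1.23 to -0.11 in WT (median -0.86). In KO it was -0.49, -0.55, -0.54, -0.78 and -0.83 in replicates 1, 2, 3, 5 and 6, all inside the WT range. Its SD was 0.42 in WT and 0.15 in KO, a contrast that was not tested, and the difference of means was 0.12 ± 0.19 (SE, n = 6 and 5, limma adjusted p = 0.972). With 1 animal left out it lay between 0.0216 (without WT replicate 4) and 0.245 (without WT replicate 6). It was 0.41 with heart RNA in Cy3 and -0.23 in Cy5, an interaction of -0.63 ± 0.34 (limma unadjusted p = 0.0922).

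Egr1, which is switched on through SRF and ELK factors, was far below the reference and widely spread in both genotypes. In WT it ran from -3.81 through a median of -2.63 to -1.63. In KO it was -3.09, -1.44, -3.77, -2.81 and -2.21 in replicates 1, 2, 3, 5 and 6. The highest animal was KO replicate 2 and the next WT replicate 5, so each genotype held both high and low animals. The difference was 0.16 ± 0.43 (SE, n = 6 and 5, limma adjusted p = 0.987, 95% interval -0.78 to 1.10). It turned to -0.179 without KO replicate 2, -0.049 without WT replicate 3 and -0.0298 without WT replicate 6, and was 0.402 without KO replicate 3.

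Nr4a1, a nuclear receptor induced by cyclic AMP and calcium signals, had the widest range, 2.89 on the log2 scale. It ran from -1.95 to 0.43 in WT (median -0.05) and from -2.22 to 0.66 in KO (median -0.66). The animals WT replicate 4 (-1.95), KO replicate 4 (-2.22) and KO replicate 6 (-2.08), lay far below the others, whose values ran from -0.82 to 0.66, and all had heart RNA in Cy5. KO minus WT of Nr4a1 was -0.39 ± 0.43 (SE, 6 animals each, limma adjusted p = 0.958). With 1 animal left out it lay between -0.614 (without WT replicate 1) and -0.132 (without WT replicate 5). The difference was 0.30 with heart RNA in Cy3 and -1.08 in Cy5, and the interaction of genotype and dye orientation was -1.38 ± 0.81 (limma adjusted p = 0.935).

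Ier2, a short nuclear protein of the early response, ran from -2.03 to -1.37 in WT (median -1.89) and from -1.99 to -1.17 in KO (median -1.60). KO replicate 2 lay above the WT range and the other 5 KO animals inside it. KO minus WT of Ier2 was 0.21 ± 0.15 (SE, 6 animals each, limma adjusted p = 0.942), positive on both probes (0.06 and 0.23), and ran from 0.119 (without KO replicate 2) to 0.3 (without KO replicate 1) with 1 animal left out.

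Myc, which drives ribosome production and cell growth, lay below the reference in every animal, as did the measured markers of dividing cells where they had a value. It ran from -3.08 to -2.31 in WT (median -2.67) and from -2.80 to -2.32 in KO (median -2.61), a difference of 0.07 ± 0.13 (SE, n = 6 and 6, limma adjusted p = 0.977), and ran from -0.0272 (without KO replicate 4) to 0.145 (without KO replicate 1) with 1 animal left out. Its 3 probes differed in mean ratio (-3.70, -2.91 and -1.41) and gave differences of -0.07, -0.02 and 0.15. By dye orientation KO minus WT of Myc was -0.28 in Cy3 and 0.42 in Cy5, an interaction of 0.70 ± 0.19 (SE, limma adjusted p = 0.935). Its limma unadjusted p was 0.00303, the lowest among the members. In this test of the interaction 4.81% of all features had an unadjusted p under 0.05. After adjustment 0 features passed in limma, so the opposite signs did not pass the test.

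The distance between animals of one genotype was large for 4 of the 10 genes. Each animal had 1 array, so differences between animals and those between arrays cannot be told apart. Egr1 and Nr4a1 had 1 probe each. The residual SD, what remains after genotype and dye orientation, was 0.89 for Nr4a1, 0.86 for Egr1, 0.69 for Fos and 0.52 for Junb on the log2 scale. These 4 exceeded 99.3%, 99.3%, 98.9% and 97.4% of all features, whose median was 0.22 and 95th percentile 0.43. Atf3 had 0.35, above 87.1%, and Ier2 0.27, above 68.8%. The remaining genes were ordinary, with 0.25 for Fosb, 0.24 for Myc and 0.22 for Fosl2, and Jun with 0.14 was above 17.7% of features. The spread of Junb was 0.414, above 94.4%, without WT replicate 5, and that of Fos 0.374, above 89.5%, with its second probe included. It also differed by dye orientation. In the Cy3 animals alone the residual SD was 0.391 for Fos (above 90.9%), 0.337 for Junb (85.1%) and 0.0902 for Atf3 (11.8%). In the Cy5 animals it was 0.915 for Fos (99.2%), 0.697 for Junb (98.6%) and 0.475 for Atf3 (94.7%). Egr1 and Nr4a1 were above at least 98.7% of features in both. With the probes of Myc averaged plainly its SD was 0.551. The percentiles describe these arrays, and no test was made of them.

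**Figure D3:**
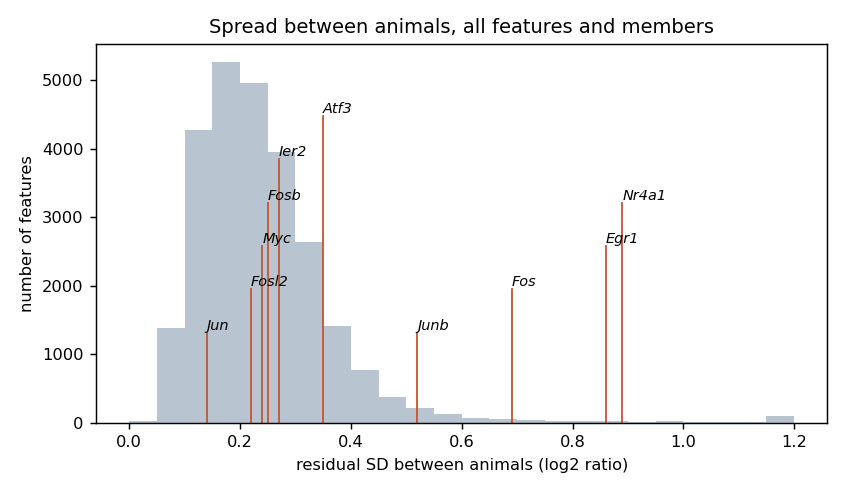
Histogram of the residual SD between animals, each with 1 array, for all 25821 features in log2 ratio (the last bar holds all SDs of 1.15 or more). Each of the 10 genes is marked by a line whose height has no meaning. Junb, Fos, Egr1 and Nr4a1 stand right of the bulk of features, and Jun, above 17.7% of features, stands in its lower part.

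The largest Pearson correlations between members joined Fos, Junb and Egr1, and none passed adjustment over all pairs. Pearson r was computed over animals for all 45 pairs after centring each gene within dye orientation, with 100000 permutations within orientation (two-sided). Exact permutation p within a genotype or an orientation used the same centred values and all orders of its animals. Within a genotype these orders crossed the dyes, and no exact p was adjusted. Of the pairs 24 were positive and 21 negative, with a median r of 0.06. At unadjusted p under 0.05 there were 4 pairs by r and 5 by rank, and 0 passed adjustment over the 45 pairs by either. By rank the largest was Atf3 with Nr4a1 (Spearman rho 0.81). The 5 also held Jun with Atf3 (rho 0.71, permutation p = 0.0187, adjusted 0.21) and Jun with Myc (rho -0.65, permutation p = 0.0309, adjusted 0.278).

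For Fos and Junb r was 0.85 over 11 animals (permutation p = 0.00236, adjusted 0.0783), with Spearman rho 0.80 (permutation p = 0.0104, adjusted 0.21). Without WT replicate 5 and KO replicate 4, the animals farthest from the median of Fos, r was 0.72. Among the 6 Cy5 animals r was 0.93 (exact permutation p = 0.00278) and in the 6 KO animals 0.65 (exact permutation p = 0.169), while Cy3 and WT had 5 animals with both values and were not tested. The pair passed adjustment without KO replicate 1 (r = 0.921, permutation adjusted p = 0.0153) or KO replicate 2 (0.877, 0.0238), and missed it when any other single animal was left out, with r = 0.726 (permutation adjusted p = 0.215) without WT replicate 5 and an adjusted p of up to 0.253 (without KO replicate 6).

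For Junb and Egr1 r was 0.76 over 11 animals (permutation p = 0.00348, adjusted 0.0783), with rho 0.78 (permutation p = 0.00762, adjusted 0.21), and 0.72 without WT replicate 5 and KO replicate 6. It was 0.90 in the 6 WT animals (exact permutation p = 0.00833) and 0.72 in the 6 animals in Cy3 (exact permutation p = 0.125). For Fos and Egr1 r was 0.70 over 10 animals (permutation p = 0.0297, adjusted 0.37), with rho 0.59 (permutation p = 0.0942, adjusted 0.372). Without both WT replicates 5 and 6 r was 0.44. With 1 animal left out it stayed positive, from 0.572 without WT replicate 6 to 0.971 without KO replicate 2 (permutation adjusted p = 0.0238). KO replicate 2 is the animal with high Egr1 and a Fos value near the middle.

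KO replicate 6, the highest KO animal for Fos and Junb, was the array with high lung and liver markers. In WT replicate 5, the highest of all, the marker means were -0.09 for lung, 0.27 for liver and 0.83 for atrium. There the means for neutrophils and platelets (0.73) and for skeletal muscle (1.34) were the second highest of the 12 arrays. Only 1 of 8 measured neutrophil and platelet markers and 5 of 10 skeletal muscle markers had a value on all arrays. These means therefore cover differing markers, and their order is not strictly comparable. The part of other tissues in the Fos and Junb values was not tested. Without the 3 arrays with markers of other tissues, r was 0.929 for Fos and Junb (permutation adjusted p = 0.117) and 0.765 for Junb and Egr1 (permutation adjusted p = 0.21).

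**Figure D4:**
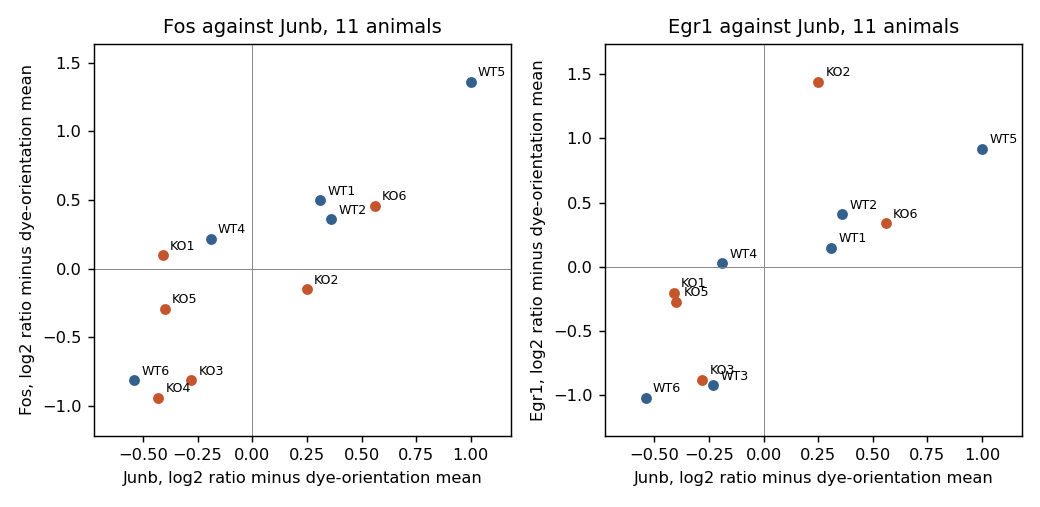
Fos (left) and Egr1 (right) against Junb in log2 ratio minus the mean of the dye orientation, 1 point per animal (blue WT, orange KO). WT5 is at the upper right for Fos, KO4 is the lowest for Fos, and KO2 is the highest for Egr1 with a Junb value only slightly above its mean.

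Jun and its partner Fos had an r of -0.52 over 11 animals (permutation p = 0.0443, adjusted 0.37), with rho -0.46 (permutation p = 0.157, adjusted 0.459), and -0.81 without WT replicate 5 and KO replicate 4. It was -0.348 without KO replicate 3 and -0.242 under quantile normalization (permutation adjusted p = 0.709 and 0.758). Atf3 and Nr4a1 had r = 0.69 over 11 animals (permutation p = 0.0559, adjusted 0.37) and rho 0.81 (permutation p = 0.0177, adjusted 0.21), with r = 0.51 without WT replicates 6 and 4 and 0.29 in the 6 Cy3 animals. For Nr4a1 r was 0.24 with Fos, 0.13 with Junb and 0.11 with Egr1 (adjusted permutation p of 0.824 to 0.918). The r of Nr4a1 and Fos turned to -0.45 without WT replicate 5 and KO replicate 4. Egr1 and Ier2 had r = 0.63 (permutation p = 0.06, adjusted 0.37) and Fos and Ier2 0.07. Of the 3 animals low for Nr4a1, WT replicate 4 and KO replicate 6 lay above the Cy5 mean for Fos, and KO replicate 4 was the lowest of all for Fos by this measure.

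**Figure D5:**
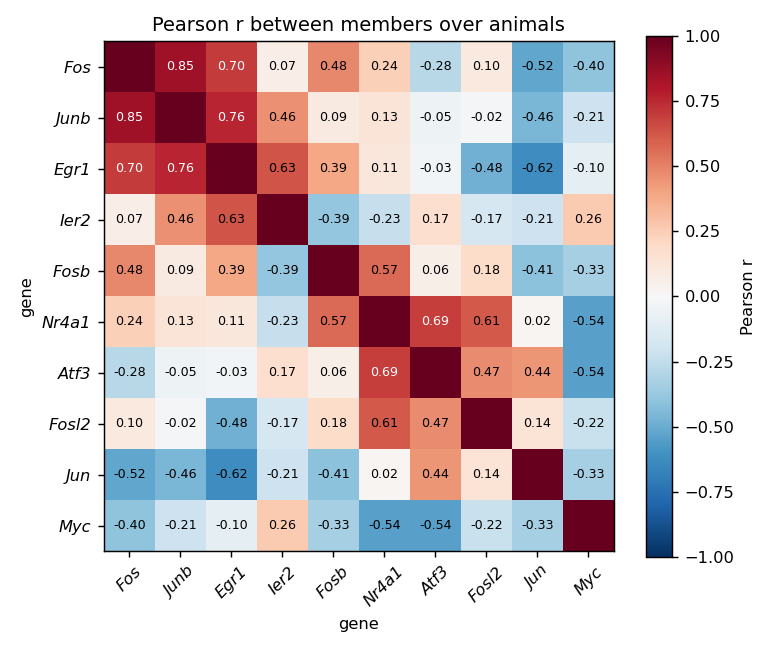
Pearson r between the 10 genes over animals (9 to 12 per pair), on log2 ratios centred within dye orientation, red positive and blue negative. Fos, Junb and Egr1 form the block at the upper left with r of 0.70 to 0.85, and Jun is negative with each of these.

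The genes most like Fos over its 11 animals, among 9851 measured on the same arrays, were Tufm, a mitochondrial elongation factor (r = 0.98), Mif, a cytokine (0.96), Fam160b1 (0.95), Pdcd6 (0.95) and Nit1 (0.93). Junb stood at rank 36 of these 9851, above 99.6% of genes. For Egr1 the most alike of 10782 were Slco5a1, Klhl18 and Cpne1 (r = 0.90 each), Hsd17b11 (0.89) and Il20rb (0.87), with Junb at rank 59 and Ier2 at rank 296. These ranks are a description over 11 arrays that share the reference and the processing.

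Relatives and regulators of the group did not pass the test either. Over 95 further genes tested on 6 lists 0 passed limma at adjusted p under 0.05, and 5 (5.26%) had an unadjusted p under 0.05, as did 5.33% of all features. The other AP-1 proteins had 4 of 8 genes above the WT level and a median of 0.00, with Batf2 at -0.26 ± 0.12 (SE), Atf2 at 0.17 ± 0.08, Fosl1 at -0.18 ± 0.12 and Batf at 0.16 ± 0.14 (limma adjusted p = 0.932 to 0.946).

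The remaining EGR and NR4A genes and the NAB corepressors of EGR proteins lay below WT in 6 of 6 tested, with a median of -0.24, where 49.7% of all features lay above. Egr2 averaged -1.69 ± 0.15 (SD) over 6 WT animals against -1.98 ± 0.37 (SD) over 5 KO animals. Its difference was -0.31 ± 0.14 (SE, limma adjusted p = 0.93), and KO replicate 2, with -1.46, was higher than every WT animal. Nab2, a corepressor that Egr1 itself induces, averaged -0.49 ± 0.12 (SD) over 6 WT animals against -0.70 ± 0.09 (SD) over 5 KO animals. The difference for Nab2 was -0.21 ± 0.09 (SE, limma adjusted p = 0.93). Nr4a3 and Egr3 both differed by -0.26, with SE of 0.14 and 0.18. None of these passed.

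Of the other immediate early genes, among them phosphatases, KLF factors and RNA-binding proteins, 19 of 37 tested lay above and 18 below, with a median of 0.00. Those of smallest p were Errfi1, an inhibitor of EGF receptor signalling (0.37 ± 0.21, SE), Ptgs2, an inducible prostaglandin synthase (-0.26 ± 0.16), Klf4 (-0.15 ± 0.10) and the phosphatase gene Dusp2 (-0.20 ± 0.13), with limma adjusted p of 0.938 to 0.942. The upstream factors and kinases had 15 of 21 above and a median of 0.02. Srf, which encodes the serum response factor, differed by 0.19 ± 0.12 (SE), Rps6ka3 by 0.11 ± 0.08, Mef2d by 0.13 ± 0.11 and Crtc2, a coactivator of CREB, by 0.10 ± 0.10.

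The MYC network had 7 of 11 above and a median of 0.01, with Mlxip, a partner of MLX, at 0.27 ± 0.10 (SE, limma adjusted p = 0.901), Mxd3 at 0.19 ± 0.13, Mxi1 at -0.10 ± 0.10 and Mga at 0.09 ± 0.08. The integrated stress response, the route by which ATF4 induces Atf3, had 5 of 12 above and a median of -0.01. Asns, the asparagine synthetase and a target of ATF4, averaged -4.73 ± 0.35 (SD) over 6 WT animals against -4.07 ± 0.53 (SD) over 5 KO animals. KO minus WT of Asns was 0.60 ± 0.17 (SE, limma adjusted p = 0.799). For Atf5 the difference was 0.48 ± 0.14 (SE, 5 animals each, limma adjusted p = 0.834), that of Psat1 -0.13 ± 0.11 and that of Eif2ak4 -0.10 ± 0.12. Neither Asns nor Atf5 passed, and both genotypes overlapped in both.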

How the data were processed

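The deposited table, made for each array by the authors in steps not given in the sources used here, holds signed log ratios, read here as log2 values of heart over reference. The base is not stated, and with natural logarithms all differences and errors would grow by the same factor. Per the labels, dyes were swapped on distinct animals. The arrays were already centred (medians near 0) and turned to 1 direction. Probes were named through the platform annotation. Probes with at least 2 values in each combination of genotype and dye were kept (36826 of 41174, and 15 of the 16 member probes), and the probes of a gene were combined by an additive fit of probe and array.

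KO minus WT was estimated with limma 3.58.1 under R 4.3.3, from a model holding genotype and dye orientation over the 12 arrays, two-sided, with Benjamini-Hochberg adjustment over 25821 features and a threshold of 0.05. The interaction was fitted likewise. Correlations used Python 3.11.15. The number of arrays limits the precision, with a median SE of 0.13. The members, gene lists and tests were chosen with earlier results of these data known. Named were all members, up to 4 genes of smallest p per list, and the 5 genes most like Fos, Egr1, Atf3 and Myc; pairs were named after their values were seen. Alternatives concerned the dye term, the replicate block, scaling, filters, probes and left-out arrays.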

Additional observations from a re-analysis of the deposited data

How the results depend on the processing

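Under 26 other settings 0 members passed the limma test, with adjusted p of 0.862 or more, and Fos, Fosb, Fosl2, Junb and Ier2 kept their direction in all settings run. Others turned: Jun (-0.0893) and Atf3 (-0.229) with heart RNA in Cy5 alone, Nr4a1 (0.303) and Myc (-0.283) with Cy3 alone, and Egr1 (-0.049) without the 2 arrays with most empty cells. Leaving out 1 animal gave -0.0034 to 0.0864 for Jun, -0.179 to 0.402 for Egr1 and -0.0272 to 0.145 for Myc. The causes were not tested. The replicate numbers did not pair the animals (correlations of deviations -0.23 to 0.02). With the number as a replicate block 1 feature was called, as without it, and Jun was -0.0034. Over all features 1 was called in KO minus WT, 2 with quantile normalization, features measured on all arrays, each probe as a feature, Cy3 alone or without the 3 arrays with markers of other tissues, 6 with a filter on ratio size, 0 with Cy5 alone, where 3 animals a group remain, and 1 to 3 without 1 animal (3 without KO replicate 6). The interaction called 0 features in limma (1241 at unadjusted p under 0.05), 1 without the filter on empty cells or without the 2 arrays with most of them, and 0 to 52 without 1 animal (52 without KO replicate 5). Of the 45 pairs 0 passed adjustment, 1 did without centring by dye (Fos and Junb, permutation adjusted p = 0.0481) and 1 with residuals of genotype and dye (Junb and Egr1, permutation adjusted p = 0.0418), and 0 to 2 without 1 animal (2 without KO replicate 2). At unadjusted p under 0.05 there were 4 pairs, 2 with quantile normalization and 3 to 6 without 1 animal. The median r of 0.06 became -0.125 to 0.168 without 1 animal (-0.125 without WT replicate 5). The plain mean of probes moved the KO mean of Myc to -2.4, and dropping the filter on empty cells moved the mean of Fos to -0.984 in WT and -1.28 in KO, since its second probe then entered.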

Other observations

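The genes most like Atf3 over its 11 animals, of 10782 measured on the same arrays, were Pan3 (Pearson r = 0.95), Bcl11a and Rpia (0.88 each), P2rx6 and Izumo4 (0.84 each), and Nr4a1 stood at rank 114. For Myc over 12 animals the most alike of 7426 were Cenpk, a kinetochore gene (0.90), Snx27 (0.89), Cmtm7 and Fbxl5 (0.88 each) and Foxd2os (0.87). Myc and Nr4a1 had r = -0.54 (permutation p = 0.124, adjusted 0.377), and r = -0.19 without KO replicate 4 and WT replicate 5. By likeness to Myc, Nr4a1 stood above only 7.82% of these genes. The ranks and the correlations with genes outside the group were not tested.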
